A study of Mus musculus with 20 samples.

Results

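The livers described here came from the 5 Vec mice, the control group of a study of benzbromarone (BBR), a drug that lowers blood urate and is given for gout, and of the nuclear receptor PPARγ in obese diabetic mice. They were taken by their label as control, which 5 of the 20 libraries of the series carry, and the account is of these livers, not of the effect of a treatment. All 20 mice were males of the Lepr db/db genotype. Such animals have no functional long isoform of the leptin receptor, overeat and become obese, insulin resistant and fatty in the liver. At 5 weeks of age the Vec mice were given an AAV8 vector with a non-targeting shRNA through the tail vein, and then vehicle (CMC-Na) by gavage every day for 4 weeks. They were fasted for 6 h before the liver was taken. The other groups, set beside the Vec livers for their spread and for the levels of Pparg and Scd1, were Vec+BBR (the same vector with BBR at 25 mg/kg), shRNA (an AAV8 vector with 4 shRNAs in 1 construct against Pparg, and vehicle) and shRNA+BBR, with 5 mice each. No lean mice or mice without a vector were among the samples, so every level is that of a db/db liver carrying AAV8. Each library was made from polyadenylated RNA of 1 mouse, and the mice are named mouse 1 to mouse 5 by the number in the label.

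The hepatocyte, which makes up most of the liver's mass, secretes most plasma proteins and apolipoproteins, makes and releases glucose during fasting, and builds fatty acids, triglycerides and cholesterol from surplus sugar. The factors SREBP1 and ChREBP switch on fatty acid synthesis after insulin and sugar, SREBP2 switches on cholesterol synthesis, and surplus fat is stored in droplets inside the hepatocyte. Liver is also among the most sex-dimorphic tissues of the mouse, through the pulses of growth hormone that males and females receive, and it holds macrophages (Kupffer cells), stellate cells and a fenestrated endothelium beside the hepatocytes. In bulk RNA, fewer cells of a type and less RNA per cell cannot be told apart.

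The 5 libraries held between 17825547 and 21708082 expected counts, and between 14327 and 15057 of 22298 listed genes had a count. Mitochondrially encoded genes took between 9.14% and 10.8% of the counts. Levels between genes are given in FPKM, which the authors scaled for transcript length and library size and which sum to between 580460 and 626900 in a library. Levels of a gene between mice are given in CPM, which is counts per 1000000 after TMM scaling, and their spread as the SD of log2 CPM over the 5 mice, where an SD of 1 is a 2-fold step. A count of 3, or between 0.141 and 0.193 CPM depending on the mouse, served as a floor, under which a level was read as no more than 0, and it covers counting error only.

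The profile of the Vec livers was concentrated in a small number of transcripts. The 25 most abundant genes took 37.8% ± 1.24 of the summed FPKM (SD, n = 5), the 100 most abundant took 57.1% ± 1.23 (SD, n = 5), and 60 genes made up 50% of it. At a mean FPKM of 1 or more, 9176 genes were found. Alb (ENSMUSG00000029368, chromosome 5 from 90460897 to 90476602), which encodes serum albumin, led with 49518, 53045, 51320, 47984 and 52256 FPKM in mice 1 to 5, or 50825 ± 2062 (SD, n = 5). This was between 7.90% and 8.76% of the summed FPKM of a liver, and the mice lay close together. Of the 25 genes, 8 were encoded by mitochondrial DNA, led by mt-Co1, a subunit of cytochrome c oxidase, with 30335 ± 2812 FPKM (SD, n = 5).

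Secreted carrier proteins made up most of the other abundant transcripts. Apoe, a ligand for lipoprotein receptors, followed with 15731 ± 1754 FPKM (SD, n = 5), Apoa2, a protein of high-density lipoprotein, with 11653 ± 2101 FPKM (SD, n = 5), and Apoc1, an inhibitor of lipoprotein uptake, with 6751 ± 1234 FPKM (SD, n = 5). Protease inhibitors were present in 4 of the 25 (Serpina1b, Serpina1c, Serpina1d and Serpina3k, between 3486 and 7217 FPKM on average), and these belong to families of near-identical genes between which reads can be divided differently. Trf (transferrin, the iron carrier), Ttr (transthyretin, the carrier of thyroid hormone and retinol-binding protein), Gc (the vitamin D binding protein) and Ahsg (fetuin-A) averaged 5543, 4918, 4088 and 4068 FPKM. Enzymes and a storage protein were also on the list, among them Mgst1, a glutathione transferase of membranes, Cyp2e1, the ethanol-oxidising cytochrome P450, and Ftl1, the ferritin light chain. Neighbours in this order often did not differ beyond their spread, as with mt-Co3, Apoa2 and mt-Co2, whose means lay between 11328 and 11818 FPKM with SDs of 972 or more. Mup22 (chromosome 4 from 60817589 to 60821463), a major urinary protein that carries pheromones, was the exception in spread, with 11753, 5145, 5548, 1376 and 8225 FPKM in mice 1 to 5. Mouse 4 had the lowest level of it and mouse 1 the highest.

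**Figure D1:**
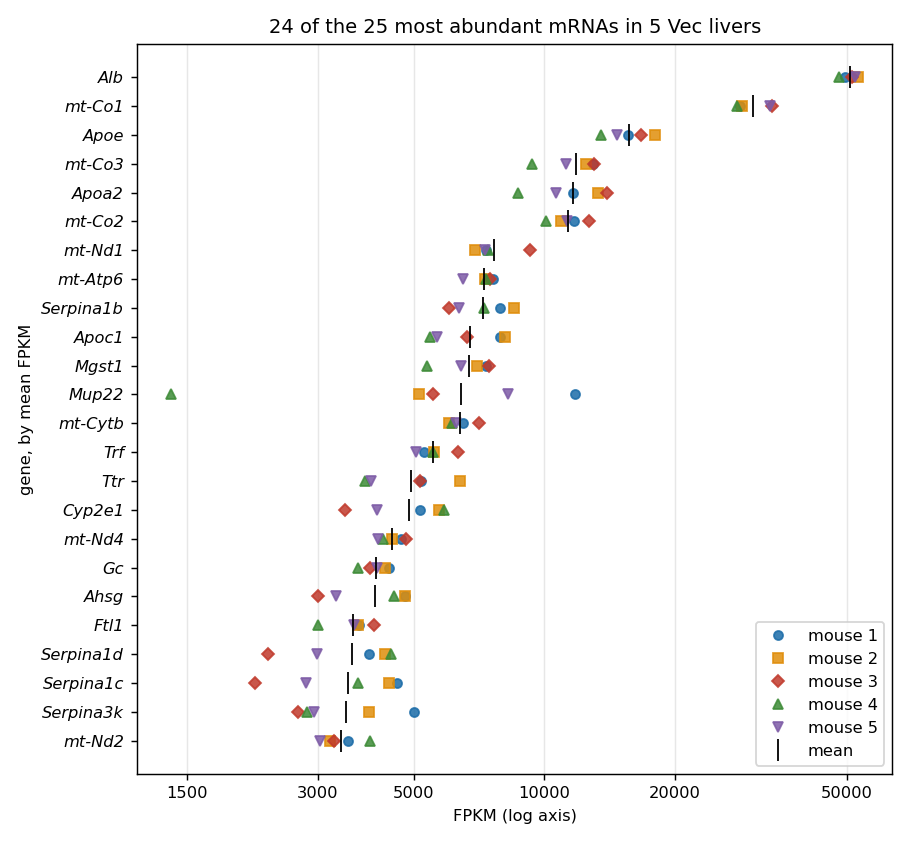
FPKM (log axis) of 24 of the 25 genes of highest mean FPKM, with a point for each of the 5 Vec mice and a bar for the mean. Most genes lie within a narrow band over the mice, while Mup22 runs from 1376 FPKM in mouse 4 to 11753 FPKM in mouse 1.

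As a check of the labelled tissue, all 12 hepatocyte markers had a mean count of 50 or more (called measured from here on), with a summed level between 72766 and 85541 FPKM. Kupffer cell and macrophage markers summed to between 139 and 342 FPKM, led by Lyz2, a lysozyme, and by the complement genes C1qb and C1qa, at 44.9, 40.2 and 38.9 FPKM on average. Clec4f, the lectin of resident Kupffer cells, had 23.4 ± 6.24 FPKM (SD, n = 5). Stellate cell and fibroblast markers summed to between 64.0 and 124 FPKM, most of it Dcn (decorin, 70.1 ± 19.7 FPKM, SD, n = 5), and endothelial markers to between 44.9 and 61.9 FPKM, led by Clec4g of the sinusoid (15.4 ± 2.75 FPKM, SD, n = 5). Cholangiocyte markers summed to at most 33.5 FPKM, led by Spp1, the secreted protein osteopontin (20.4 ± 5.03 FPKM, SD, n = 5). Lymphocyte and neutrophil markers reached at most 7.62 and 12.6 FPKM in sum, and none of them had a mean count of 50. Erythroid markers summed to between 828 and 1962 FPKM and were mostly globin, led by Hbb-bs (551 ± 228 FPKM, SD, n = 5), a globin of red blood cells.

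Markers of tissues that lie near the liver or share its fuels were at or near 0. Of the 12 pancreas markers, 8 had no count in any Vec library, namely the digestive enzyme genes Ctrb1, Cela2a, Prss2, Cpb1, Amy2a5, Try5, Cel and the secretory granule gene Zg16, which allows at most the floor of 0.141 to 0.193 CPM in a mouse. The adipocyte genes Lep, which encodes leptin, and Plin1, the droplet coat of fat cells, were also at 0 in all 5 mice, and the adipocyte list summed to between 6.13 and 8.81 FPKM, nearly all of it the lipase gene Lipe, which other cells also use. The skeletal muscle genes Myh4, Ckm, Mb and Tnnt3 were at 0 as well.

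The gene mutated in these mice and the gene targeted in other groups were both low. Lepr had 0.751, 0.643, 1.57, 0.608 and 1.08 CPM in mice 1 to 5, or 0.159 ± 0.0694 FPKM (SD, n = 5), and a count over the whole gene does not tell its isoforms apart, so it does not check the genotype. Pparg had 16.4, 20.05, 35.9, 19.4 and 32.1 CPM in the Vec mice, and the library labels were checked by its level in the 5 shRNA mice, 3.24 to 7.31 CPM, which did not overlap with these. The 5 shRNA+BBR mice had 11.4, 9.98, 21.8, 18.9 and 7.19 CPM, and mice 3 and 4 of that group lay within the Vec range, so the check is less clear there. Within the Vec group mice 3 and 5 had the highest levels of both genes.

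Among metabolic programmes, glucose production and use were at high levels. Pck1, the enzyme that commits carbon to gluconeogenesis, had 1250 ± 338 FPKM (SD, n = 5) and Fbp1, fructose bisphosphatase, had 1037 ± 118 FPKM (SD, n = 5), while G6pc, whose product releases free glucose, had 259 ± 45.1 FPKM (SD, n = 5). On the side of sugar use Gapdh, a glycolytic enzyme, had 2670 ± 537 FPKM (SD, n = 5). The fatty acid hydroxylase gene Cyp4a10 had 1041 ± 181 FPKM (SD, n = 5). Scd1, the desaturase that makes oleate, averaged 2058 FPKM, but its SD of 2290 FPKM was larger than its mean. Of the plasma hormones made by liver, Hamp (hepcidin, which limits iron release) had 1099 ± 439 FPKM (SD, n = 5) and Igf1 had 239 ± 22.5 FPKM (SD, n = 5), whereas Fgf21 had 3.89 ± 2.30 FPKM (SD, n = 5).

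Spread between the mice was measured in the 9563 genes with a mean count of 50 or more. The median SD of log2 CPM was 0.216, and 5% of genes lay below 0.0845 and 5% above 0.583. Counting alone would give a median SD of 0.0803, and 94.6% of the genes lay above their own counting SD. An SD of 1 or more was found in 120 genes (1.25%) and an SD of 0.5 or more in 723 genes (7.56%), and these shares are the background against which gene lists are read. When a gene with an SD of 0.5 or more was assigned to the mouse farthest from its mean, mouse 3 took 235 genes and mouse 4 took 223, mouse 2 took 152, and mice 1 and 5 took 62 and 51. Mouse 3 was the high mouse in 145 of its 235 genes, mouse 2 the low mouse in 133 of its 152, and mouse 4 was high in 108 and low in 115. Over all 9563 genes mice 1 to 5 were the highest in 14.9%, 23.3%, 20.2%, 27.9% and 13.7%, and the lowest in 14.7%, 15.2%, 25.5%, 27.4% and 17.2%, which is the background for counts of the highest and lowest mouse in a list. The first principal component held 42.6% of the variance and ran from mouse 4 to mouse 3, and the second held 29.9% and set mouse 2 apart.

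**Figure D2:**
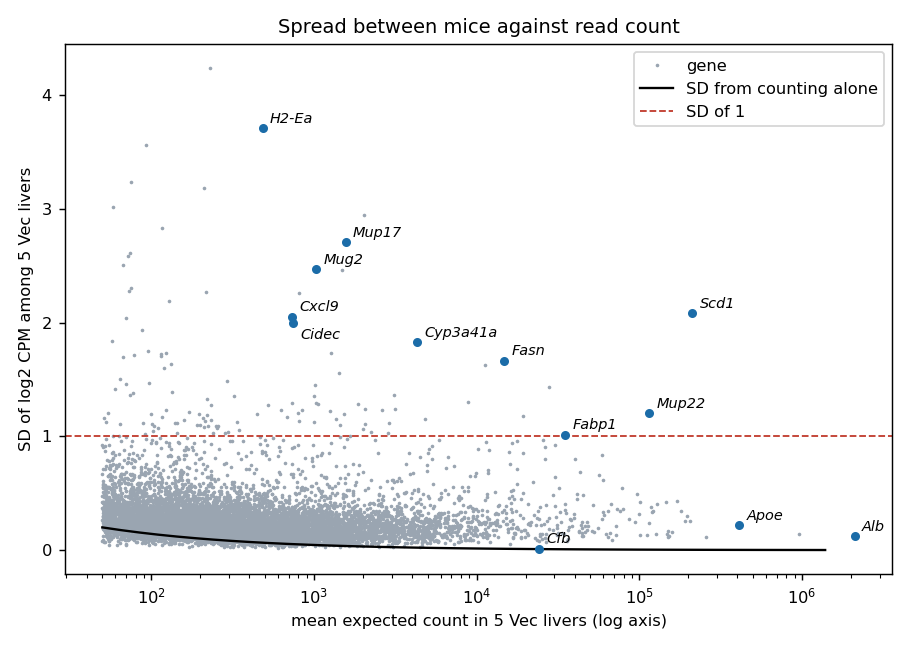
SD of log2 CPM among the 5 Vec livers against the mean expected count (log axis), with a point for each of 9563 genes, the SD that counting alone gives (solid line) and an SD of 1 (dashed line). Scd1, Mup22 and Fabp1 combine high counts with SDs of 1.01 to 2.08, while Alb and Apoe lie at 0.121 and 0.220.

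The genes of highest SD fell into a few kinds. Of the 30 with the highest SD, 13 had a mouse at or below the floor, which means that they were close to absent in that mouse. The highest SD of all, 4.24, was that of a Zc3h11a entry on chromosome 1 (ENSMUSG00000116275), a zinc finger gene of RNA export, with 24.7, 18.4, 0, 0 and 17 CPM in mice 1 to 5. A second Zc3h11a entry at the same place (ENSMUSG00000102976) had 0.401, 5.72, 21.7, 23.4 and 4.19 CPM, so it was highest in the mice where the first was at 0. Together with Gm38394, which overlaps both, they summed to 26.9, 24.8, 22.4, 35.4 and 25.5 CPM, an SD of 0.248 on the log2 scale. The locus as a whole varied about as much as the median gene, and how reads were divided between overlapping gene models was not tested.

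The ribosomal protein gene Rps18 and its copies Rps18-ps5 and Rps18-ps6 also varied singly and not in sum. Rps18 (chromosome 17) had 5.51, 240, 98.2, 76.4 and 6.21 CPM, and Rps18-ps6 (chromosome 13) had 191.5, 1.22, 88.2, 68.2 and 150 CPM. The sum of all 3 entries lay between 150 and 241 CPM, an SD of 0.279 on the log2 scale. Rps18 lies in the H2 region of chromosome 17, as does H2-Ea, an antigen presentation gene, which had no count in mouse 2 and between 19.7 and 52.4 CPM in the other 4. H2-K1, an MHC class I gene of the same region, had 140, 1167, 900, 744 and 105 CPM, with mice 1 and 5 low.

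Other genes among the 30 stood far apart in a single mouse or were at or near 0 in some. Mug2, a murinoglobulin protease inhibitor on chromosome 6, had 297 CPM in mouse 2 and between 5.46 and 7.86 CPM in the other 4, and its neighbour in sequence, Mug1, had between 1333 and 3295 CPM. Tyrp1, a gene of pigment synthesis, had between 4.82 and 5.69 CPM in mice 2, 3 and 4 and at most 0.0501 CPM in mice 1 and 5. Gm50241 was at 0 in mice 4 and 5 and between 6.22 and 12.1 CPM in the other 3, Gm45753 reached 15.7 CPM in mouse 4 and was at 0 in mice 1 and 3, and Gm45140 was at 0 in mouse 1. Tlr12, a receptor for parasite profilin, had 24.1 CPM in mouse 4, 7.52 CPM in mouse 2 and under 1 CPM in the other 3. The elongation factor gene Tceanc2 had 6.49 and 6.78 CPM in mice 2 and 5 and under 1 CPM in the other 3. Antibody genes were among the 30 too, with Ighg2c at 0 in mouse 2 and 19.5 CPM in mouse 3, and Igkc at 0.450 CPM in mouse 2 and 14.3 CPM in mouse 3. S1pr5, a receptor for sphingosine 1-phosphate, ran from 15.6 CPM in mouse 1 to 0.753 CPM in mouse 5. Ephb2, a receptor tyrosine kinase, Sprr1a, a gene of epithelial cornification, and Rad51b, a gene of DNA repair, were highest in mouse 3 (between 9.80 and 10.7 CPM), next in mouse 5 and lowest in mouse 2 or mouse 4.

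Most of the genes of highest SD varied in the other groups as well. Of the 30 genes, 29 were in the top 5% by pooled within-group SD of the 15 livers of the other groups, as were 97 of the 120 genes with an SD of 1 or more. The 15 livers did not enter the ranking, and the top 5% holds 479 of all 9563 genes. A pooled SD of 1 or more there was found in 20 of the 30, in 32 of the 120 and in 44 of all 9563 genes.

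Fat synthesis held some of the most variable abundant genes of these livers. In the list of de novo lipogenesis and desaturation, 19 of 20 genes were measured, their median SD was 0.878 beside 0.216 over all genes, and 15 of 19 had an SD of 0.5 or more, where 7.56% of all genes did. Mouse 3 was highest in 18 of the 19 genes, beside 20.2% of all genes. Mice 3 and 5 were the highest pair in 16, and the lowest mouse was mouse 4 or mouse 1 in 17. Over all genes mice 3 and 5 were the highest pair in 12.8%, and in 34.7% of the 723 genes with an SD of 0.5 or more. The median difference of the list from the 5-mouse mean was -0.49, -0.30, 1.13, -0.70 and 0.46 on the log2 scale in mice 1 to 5.

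Scd1 (ENSMUSG00000037071, chromosome 19 from 44394455 to 44407879) had 3352, 4111, 28650, 707 and 15647 CPM in mice 1 to 5, an SD of 2.08. Mice 3 and 5 stood well above the other 3, and mouse 3 was 40.5-fold above mouse 4. Fasn (ENSMUSG00000025153, chromosome 11 from 120805846 to 120824547), the fatty acid synthase, had 201, 307, 1818, 127 and 1207 CPM, in the same order of mice. Elovl6, which extends palmitate to stearate, had 70.1, 79.4, 323, 33.8 and 152 CPM, again in that order. Thrsp, which activates lipogenesis, had between 454 and 2366 CPM, and Tkfc, a kinase of fructose use, had between 458 and 1029 CPM. The regulators of these enzymes did not share their spread. Srebf1, which encodes SREBP1, had an SD of 0.15, and Mlxipl, which encodes the glucose-responsive factor ChREBP, had an SD of 0.14, both below the median of all genes.

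Lipid droplet genes and targets typical of PPARγ were also highest in mouse 3 for the most part (12 of 17, beside 20.2% of all genes). Their median SD was 0.491 over 17 of 18 genes measured. Of the 17, 4 had an SD of 1 or more and 8 an SD of 0.5 or more, and mice 3 and 5 were the highest pair in 14. Cidec (chromosome 6 from 113424634 to 113435760), which fuses droplets, had 5.86, 5.59, 130, 6.94 and 34.1 CPM, so that mouse 3 was 23.2-fold above mouse 2. Cidea, its relative from brown fat, had 0.801, 0.900, 12, 0.101 and 4.14 CPM, with mouse 4 below the floor. Plin2, the main droplet coat of the hepatocyte and the most abundant gene of the list, had 353, 443, 1107, 360 and 692 CPM. Plin4, another coat protein, had 44.9 and 43.7 CPM in mice 3 and 5 and between 5.85 and 22.5 CPM in the other 3. Cideb and G0s2, the latter an inhibitor of the lipase ATGL, averaged 239 and 140 FPKM, and Cideb was among the flatter genes with an SD of 0.23. Fabp1, the liver fatty acid carrier, which is in none of the lists, followed the same mice with 2492, 2340, 5995, 917 and 3456 FPKM.

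Cholesterol synthesis genes were all measured, with a median SD of 0.502 over 24 genes, and 12 of them had an SD of 0.5 or more. Mouse 3 was highest in 22 of the 24, beside 20.2% of all genes, and mouse 4 or mouse 1 was lowest in 22. Without mouse 3 the median SD of the list was 0.312. Fdps, which makes farnesyl pyrophosphate, had 28.9, 47.7, 163, 22.8 and 82.8 CPM. Mvd, the last enzyme of the mevalonate pathway proper, had 2.65, 5.40, 12.4, 1.72 and 5.93 CPM. Other abundant genes of the list were late enzymes. Sc5d had an SD of 0.53, and Ebp was lowest in mouse 5 and had an SD of 0.19. Srebf2, which encodes the regulator SREBP2, had an SD of 0.20. The medians of the lipogenesis and cholesterol lists had the same sign in all 5 Vec mice but in 7 of the 15 other livers. For the lipogenesis and lipid droplet lists it was all 5 Vec mice and 11 of the 15 other livers.

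Promoters of 3 genes with their highest levels in mice 3 and 5 are shown so that the letters they have in common can be seen. They are the 250 bases upstream of the RefSeq start site on GRCm38.p6, from 5′ to 3′ on the strand of the gene, and capitals mark matches on either strand to CCAAT, the box bound by NF-Y, or to TCACNCCAC, a form of the sterol regulatory element. Fasn (chr11:120824548-120824797, minus strand), Hmgcs1 (chr13:119690101-119690350, plus strand), which encodes the first committed enzyme of the mevalonate pathway and had 17.4, 23.8, 80.7, 20.5 and 41.0 CPM in mice 1 to 5, and Mvd (chr8:122443423-122443672, minus strand) read as follows.
Fasn: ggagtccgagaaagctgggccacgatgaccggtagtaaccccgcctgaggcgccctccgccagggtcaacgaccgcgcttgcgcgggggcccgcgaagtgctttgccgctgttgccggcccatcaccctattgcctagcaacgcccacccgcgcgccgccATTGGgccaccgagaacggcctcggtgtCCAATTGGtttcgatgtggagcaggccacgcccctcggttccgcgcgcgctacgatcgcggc
Hmgcs1: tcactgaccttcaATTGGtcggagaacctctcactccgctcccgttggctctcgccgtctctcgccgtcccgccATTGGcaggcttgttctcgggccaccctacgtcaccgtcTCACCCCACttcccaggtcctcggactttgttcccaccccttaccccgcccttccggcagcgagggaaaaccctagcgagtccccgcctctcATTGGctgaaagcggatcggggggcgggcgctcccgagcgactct
Mvd: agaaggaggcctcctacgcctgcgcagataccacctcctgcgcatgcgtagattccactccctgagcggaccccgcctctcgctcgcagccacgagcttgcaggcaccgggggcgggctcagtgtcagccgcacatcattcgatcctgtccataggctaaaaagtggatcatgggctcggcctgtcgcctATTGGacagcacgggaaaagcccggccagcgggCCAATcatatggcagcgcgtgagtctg
Fasn held 3 matches to CCAAT, of which the last pair overlap, Hmgcs1 held 3 and Mvd held 2, and only Hmgcs1 of these held the sterol element. Among 15863 mouse promoters with a RefSeq start within 250 bases of the GENCODE gene start, 36.1% held CCAAT and 1.07% held TCACNCCAC in the same window. CCAAT was found in 14 of 15 cholesterol synthesis genes and in 8 of 13 lipogenesis genes that matched, and TCACNCCAC in 1 of 15 and 0 of 13. Genes of low SD held CCAAT too, with 1 match each in Srebf1, Mlxipl and Srebf2 and 2 in Ebp. The variable genes Elovl6 and Pklr held none, so CCAAT did not separate variable genes from flat ones. A match is a description of letters, and no match says only that these letters are not in this window.

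**Figure D3:**
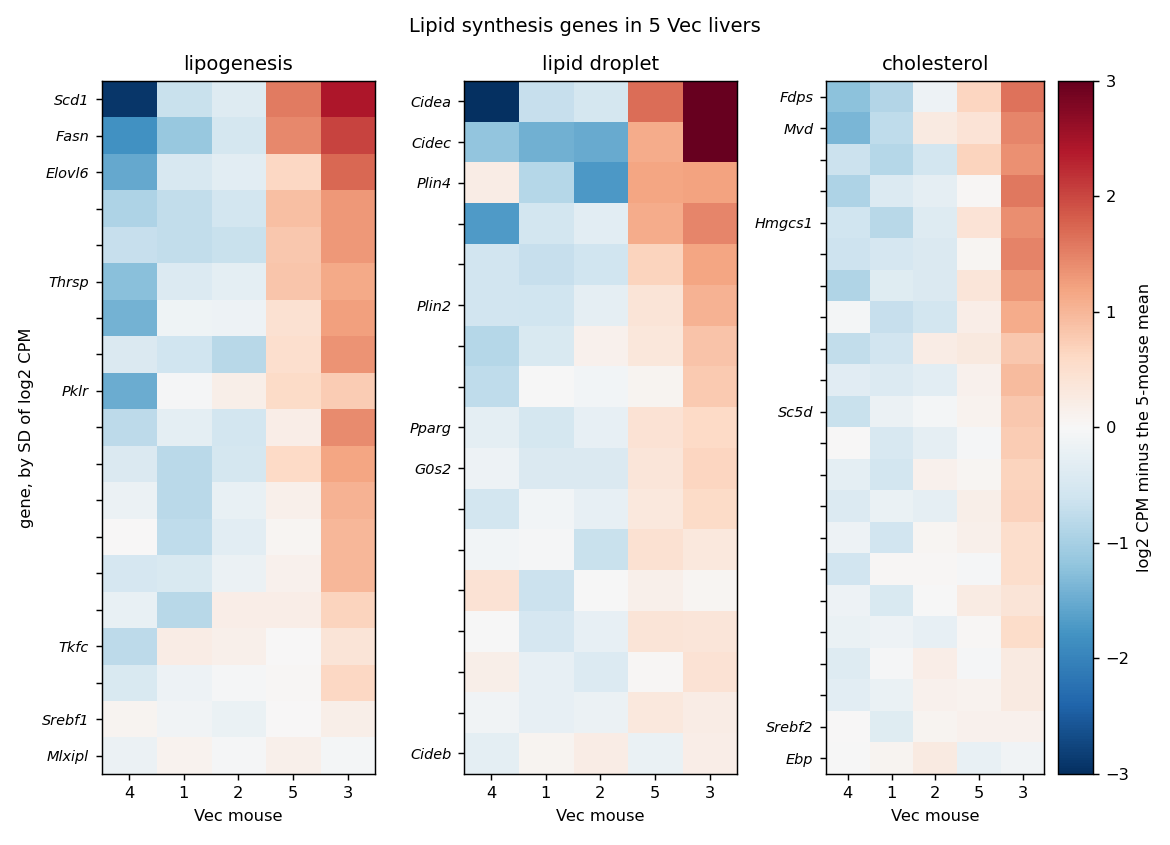
Difference of log2 CPM from the mean of the 5 mice (colour, limited to 3 in either direction) for measured genes of the lipogenesis, lipid droplet and cholesterol lists, sorted by SD and labelled where named in the text, with mice in columns in the order 4, 1, 2, 5 and 3. Mouse 3 is red in nearly every gene and mouse 5 in most, while Srebf1, Mlxipl, Srebf2 and Ebp are pale in all mice.

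Fatty acid oxidation genes and targets typical of PPARα were flatter, with a median SD of 0.240 over 28 genes. Of these, 8 had an SD of 0.5 or more, where 7.56% of all genes did. Mouse 3 was still highest in 18 of the 28, beside 20.2% of all genes. Mice 3 and 5 were the highest pair in 12, beside 12.8% of all genes, and mouse 4 or mouse 1 was lowest in 25. Pdk4, which slows glucose oxidation, had 5.46, 7.13, 29.1, 9.83 and 22.6 CPM, with mice 3 and 5 again high. Ppara itself had 25, 37.1, 38, 112 and 71.3 CPM, so that mouse 4 was highest and mouse 1 lowest, which is not the order of the lipogenic genes. The medium-chain dehydrogenase Acadm had an SD of 0.09.

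Genes of the portal and central zones of the lobule were mostly low in mice 3 and 5. Mice 3 and 5 were the lowest pair in 12 of 16 periportal genes and in 9 of 15 pericentral genes, where they were the lowest pair in 16.3% of all genes. Mouse 3 was lowest in 11 of the periportal and 10 of the pericentral genes, beside 25.5% of all genes. Ass1, the urea cycle enzyme argininosuccinate synthase, had 4646, 4903, 2318, 5751 and 3032 CPM, and Sds, serine dehydratase, had 457, 464, 169, 436 and 196 CPM. Oat, ornithine aminotransferase of the central zone, had 4118, 2961, 1211, 5099 and 1927 CPM, and Cyp1a2, a drug-metabolising P450, had 1231, 1340, 507, 1124 and 495 CPM. The median SDs were 0.429 for the periportal and 0.414 for the pericentral genes, with 6 of 16 and 4 of 15 at 0.5 or more. The sign of the lipogenesis median and that of the periportal median were opposite in all 5 Vec mice and in 9 of the 15 other livers. Glutamine synthetase (Glul), the marker of the innermost central zone, had an SD of 0.19.

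Glucose production genes had a median SD of 0.289 and were lowest in mouse 3 in 10 of 14, beside 25.5% of all genes. Pck1 had 3934, 4082, 2488, 4528 and 2576 CPM, and Igfbp1, an insulin-suppressed binding protein, had 62.3, 109, 48.5, 146 and 45.9 CPM. Tat, tyrosine aminotransferase, had between 1101 and 2784 CPM. Glycolytic genes had a median SD of 0.339, or 0.187 without mouse 4, and were highest in mouse 3 in 10 of 17 and lowest in mouse 4 in 11 of 17, beside 20.2% and 27.4% of all genes. Pklr, the liver pyruvate kinase, had 452, 528, 787, 166 and 696 CPM. Ldha was flat apart from mouse 3, with 967 to 1007 CPM in 4 mice and 1165 CPM in mouse 3.

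The major urinary proteins and the female-biased genes had the highest median SDs of the lists, although all mice were male. Of 16 measured genes with female-biased expression in mouse liver, 9 had an SD of 1 or more, where 1.25% of all genes did, and the median SD was 1.11. Mouse 4 was highest in 9 and mouse 3 lowest in 9, beside 27.9% and 25.5% of all genes, and the list median was -1.18 in mouse 3 and 0.80 in mouse 4 on the log2 scale, with the other 3 between -0.07 and 0.03. Cyp3a41a (chromosome 5 from 145694049 to 145720136), a cytochrome P450, had 148, 213, 20.9, 659 and 80.9 CPM. Sult2a1, a sulfotransferase of steroids and bile acids, had 61.2, 11.4, 13.4, 210 and 25.8 CPM. Cux2, a female-biased repressor downstream of growth hormone, had 2.05, 7.90, 0.441, 11.6 and 3.63 CPM, which also places mouse 4 highest and mouse 3 lowest. The members did not all follow this order, as Cyp2b9, the most abundant with 256 ± 35.0 FPKM (SD, n = 5), had an SD of 0.15. Cyp2b13, which is close to it in sequence, was lowest in mice 1 and 2, with 105 and 127 CPM, and between 298 and 410 CPM in the other 3. Cyp3a41a, the Sult2a genes and Cyp2b9 and Cyp2b13 have close relatives, so reads can be divided between copies.

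Male-biased genes were lowest in mouse 4 in 9 of 18 and highest in mouse 1 in 9 of 18, beside 27.4% and 14.9% of all genes, with a median SD of 0.540, or 0.337 without mouse 4. Cyp4a12b, a fatty acid hydroxylase, had 115, 93.4, 31.4, 13.9 and 24.6 CPM. Mup3, Mup20 and Gstp1, a glutathione transferase, were the most abundant, with 1366, 912 and 442 FPKM on average. The major urinary proteins, 16 of 22 measured, had a median SD of 1.22 and 12 members at an SD of 1 or more. Mouse 1 was highest in 15 of the 16 and mouse 4 lowest in 15, beside 14.9% and 27.4% of all genes. Summed over the 22 genes they took 19163, 10128, 10246, 2345 and 13504 CPM in mice 1 to 5, an 8.17-fold range, and since the copies are near-identical the sum is firmer than any single member. Mup17 had 126, 70.7, 95.2, 1.42 and 106 CPM, and Mup15 had 67.8, 36.3, 42.1, 1.47 and 58.7 CPM, so mouse 4 was further below the rest there than in the sum. Without mouse 4 the median SD of the list was 0.451 in place of 1.22 and 1 of 16 members had an SD of 1 or more. The female-biased and major urinary protein medians had opposite signs in 3 of the 5 Vec mice and in 7 of the 15 other livers.

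**Figure D4:**
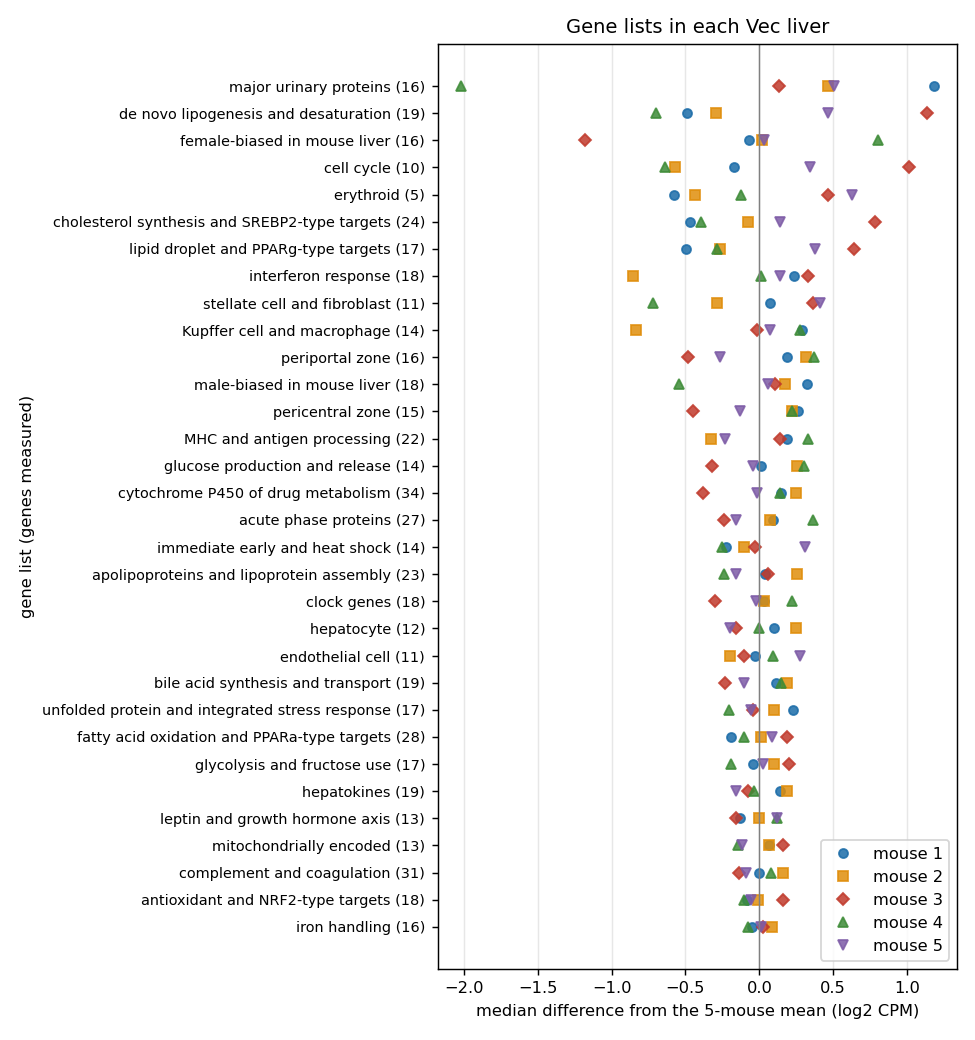
Median difference from the 5-mouse mean (log2 CPM) of each list with at least 5 measured genes, with a point for each Vec mouse and lists sorted by the SD of the 5 medians. Mouse 4 lies at -2.02 in the major urinary proteins, mouse 3 at 1.13 in lipogenesis and -1.18 in the female-biased genes, and mouse 2 at -0.86 in the interferon response.

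Immune genes set mouse 2 apart. In the interferon response, 18 of 27 genes were measured, the median SD was 0.528, and mouse 2 was lowest in 14, beside 15.2% of all genes. The list median was -0.86 in mouse 2 and between 0.01 and 0.33 in the other 4. Cxcl9 (chromosome 5 from 92321347 to 92328079), a T cell attractant induced by interferon γ, had 94.8, 1.99, 22.6, 42.2 and 22.3 CPM, and Gbp2, an interferon-induced GTPase, had 27.4, 2.44, 13.2, 22 and 15.7 CPM. The chemokine Ccl5 had 0.193 CPM in mouse 2 and between 2.87 and 7.99 CPM in the others, and Tgtp1, another interferon-induced GTPase, was at 0 in mouse 2 and between 1.84 and 7.01 CPM in the others. Bst2, the most abundant member, varied little, with an SD of 0.27. Antigen presentation genes were lowest in mouse 2 in 13 of 22, beside 15.2% of all genes, and Cd74, the invariant chain, had 186, 29.2, 105, 155 and 89.8 CPM. The median of this list was -0.33 in mouse 2 and -0.23 in mouse 5, so mouse 2 did not stand alone there. H2-K1, described above, was highest in mouse 2.

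Markers of macrophages were low in the same mouse. Mouse 2 was lowest in 12 of 14 Kupffer cell and macrophage markers, beside 15.2% of all genes. The list median was -0.84 in mouse 2, and the other 4 lay between -0.02 and 0.29. Marco, a scavenger receptor, had 26.9, 2.44, 6.18, 29.0 and 9.18 CPM. The summed FPKM of the list was 340, 139, 277, 342 and 304 in mice 1 to 5, and that of the lymphocyte markers 6.52, 0.870, 7.62, 4.54 and 5.56, so mouse 2 was lowest in both. The part of cell number in the interferon values was not tested. Acute phase genes were lowest in mouse 2 only in part, with Saa1, serum amyloid A, at 156, 24.5, 106, 137 and 75.4 CPM and Saa3 at 10.7, 1.16, 4.26, 6.23 and 2.50 CPM. The list was highest in mouse 4 in 13 of 27 genes and lowest in mouse 3 in 12, beside 27.9% and 25.5% of all genes, and its most abundant members, Hpx (hemopexin) and Hp (haptoglobin), had SDs of 0.31 and 0.27.

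Cell cycle and matrix genes were for the most part highest in mice 3 and 5, at low levels. Mice 3 and 5 were the highest pair in 7 of 10 measured cell cycle genes, beside 12.8% of all genes. For stellate cell and fibroblast markers it was 7 of 11. Of 20 cell cycle genes 10 were measured, and all 10 were highest in mouse 3, beside 20.2% of all genes. The count minimum is a mean over the same 5 mice, so a gene of low count can pass it through a mouse where it is high. The list median was 1.01 in mouse 3, and Mcm5, a DNA replication helicase subunit, had 3.46, 2.51, 13.3, 1.77 and 7.82 CPM. Cdkn1a, the cell cycle inhibitor p21 and the most abundant member, had 21.1, 22.7, 87.8, 68.8 and 48.7 CPM, so mouse 4 lay above mouse 5 there. Stellate cell and fibroblast markers were lowest in mouse 4 in 9 of 11, beside 27.4% of all genes. Among them Col3a1, a fibrillar collagen, had 27.6, 19.9, 56.2, 10.6 and 47.8 CPM. The summed FPKM of that list was 107, 64.0, 124, 68.0 and 124. Globin levels were also highest in mice 3 and 5, with Hbb-bs at 230, 250, 463, 316 and 557 CPM. The part of matrix-producing cells and of blood in the values of mice 3 and 5 was not tested. Hspb1, a small heat shock protein, had 12.4 and 13.1 CPM in these mice and between 1.52 and 3.66 CPM in the others, and Hspa1b, an inducible chaperone, stood out in mouse 5 alone with 30.3 CPM against 3.76 to 5.78 CPM.

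Drug-metabolising cytochrome P450 genes had a median SD of 0.426 over 34 genes and were lowest in mouse 3 in 20, beside 25.5% of all genes. Cyp2e1 had 4864 ± 1042 FPKM (SD, n = 5), Cyp3a11 had 1324 ± 325 FPKM (SD, n = 5) and Cyp2c50 had 1140 ± 321 FPKM (SD, n = 5). Bile acid genes had a median SD of 0.286, and the exception was Cyp7a1, the rate-limiting enzyme of bile acid synthesis, with 64.5, 66.9, 19.3, 165 and 59.0 CPM. Apolipoprotein and lipoprotein genes had a median SD of 0.333, with Pltp, the phospholipid transfer protein, at 24.6, 14.9, 103, 16.6 and 41.2 CPM and Apoa4 at 998, 1111, 3748, 688 and 1164 CPM. Hepatokine genes had a median SD of 0.332, and Igfbp2, a binding protein for insulin-like growth factors, had 11.8 and 16.9 CPM in mice 3 and 5 and between 59.4 and 75 CPM in the other 3. Clock genes had a median SD of 0.315, led by Dbp, an output gene of the clock, which had 89.8 and 91.8 CPM in mice 1 and 2 and between 28.6 and 35.0 CPM in the other 3. The hour at which each mouse was killed is not given in the sources used here.

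Of the lists with at least 5 measured genes, the lowest median SDs, beside fatty acid oxidation given above, were those of 6 others. The median over all genes was 0.216, and only the mitochondrially encoded and antioxidant lists lay below it. Mitochondrially encoded genes had a median SD of 0.143, antioxidant genes 0.210, complement and coagulation genes 0.222, endothelial markers 0.234 (0.148 without mouse 5), the unfolded protein response 0.241 and iron handling 0.241 (0.154 without mouse 4). In the last of these, Trf had an SD of 0.11 and Hamp2, the second hepcidin gene, an SD of 0.82. Immediate early and heat shock genes had a median SD of 0.357, and genes of the leptin and growth hormone axis 0.375, with Ghr, the growth hormone receptor, at an SD of 0.12 and Irs1, the insulin receptor substrate, at 3.16, 3.15, 2.25, 10.3 and 8.15 CPM. The lowest SD of all 9563 genes, 0.0116, was that of Cfb (chromosome 17 from 34856374 to 34862518), complement factor B, with between 1232 and 1256 CPM in the 5 mice. Its counting SD was 0.00935, so the mice differed by little more than counting gives. Next in order were Dgkz, Dap, Hnrnpa1, Ddx27, Wipi2, Ywhaq, Wwp2, Rac1 and Tnfaip1, genes of signalling, RNA binding and trafficking used by most cells.

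Spread among the Vec livers was set beside that of the other groups. The median SD over the same 9563 genes was 0.216 in Vec, 0.158 in Vec+BBR, 0.147 in shRNA and 0.197 in shRNA+BBR, and an SD of 1 or more was found in 120, 37, 51 and 39 genes. These genes were kept for their count in the Vec livers. For a test, the median absolute difference of each library from its group mean was taken over 9795 genes with a mean count of 50 or more over all 20 libraries. It was 0.122, 0.142, 0.160, 0.195 and 0.133 in Vec mice 1 to 5, or 0.150 ± 0.0285 (SD, n = 5), and 0.114 ± 0.0265 (SD, n = 15) in the other livers. The difference was 0.0365, with p = 0.0179 in a two-sided exact permutation test over 15504 assignments of libraries. Each value is taken from the mean of its own group, so a far liver also raises the values of its group. The values within a group are therefore not independent, and the p-value is approximate. The groups overlapped, and the difference did not pass 0.05 without Vec mouse 3 (0.0279, exact permutation p = 0.0679), without mouse 4 (0.0162, p = 0.264), without mouse 5 (0.0333, p = 0.0655) or with library size alone as the scale (0.0325, p = 0.0666).

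**Figure D5:**
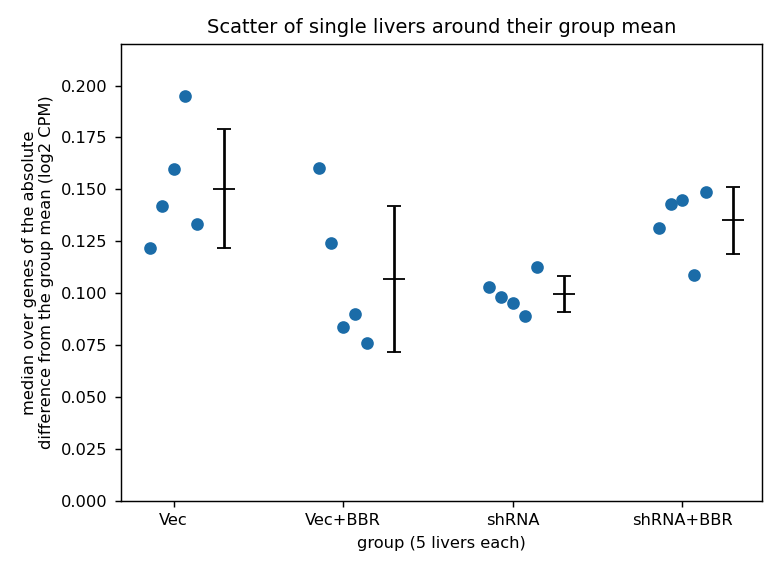
Median over genes of the absolute difference of each liver from the mean of its group (log2 CPM), with a point for each of the 5 livers of a group and a bar for the mean with its SD. The Vec livers lie between 0.122 and 0.195, and the 3 other groups have means of 0.107, 0.0996 and 0.135.

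Single lists are given by the SD of their 5 list medians in each group. For lipogenesis it was 0.759 in Vec and 0.124, 0.350 and 0.337 in Vec+BBR, shRNA and shRNA+BBR. Scd1 spanned 707 to 28650 CPM in Vec, 25538 to 32389 CPM in Vec+BBR, 6078 to 25382 CPM in shRNA and 17646 to 35163 CPM in shRNA+BBR. For the female-biased list the SD of the median was 0.71 in Vec and between 0.310 and 0.458 in the others, and for the interferon response 0.478 and between 0.302 and 0.384. The mitochondrially encoded genes had the lowest value in Vec, with 0.129 in Vec and between 0.182 and 0.351 in the others. Vec was also not the widest group in antigen presentation genes, with 0.282 in Vec and 0.179 to 0.333 in the others. The same held for erythroid markers, with 0.535 in Vec and 0.419 to 0.728 in the others, and for some further lists. These differences between groups in single lists were not tested.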

How the data were processed

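Libraries of 20 livers were read from the deposited tables, 1 per mouse, and samples were grouped by their treatment label. Per the file headers, the authors deposited FPKM values and expected counts for 22298 genes in every library. The submitters' processing notes name mm10 (GRCm38), and the aligner and the counting program are not given in the sources used here. Between 92.8% and 93.3% of the expected counts were whole numbers, and all counts were rounded to whole numbers for CPM. Coordinates are those of GENCODE release M21, in which 22255 of the gene identifiers were found. Symbols are the deposited ones, and for 76 entries without a symbol the GENCODE name was used where there was one. No per-sample column was left unused.

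Counts were scaled by TMM over all 20 libraries (genes kept by filterByExpr, 12342) and turned into log2 CPM with a prior count of 2 in edgeR 4.0.16 under R 4.3.3, with limma 3.58.1. The scripts were tested on simulated data. Spread was described, not tested, over genes with a mean count of 50 or more. Between-group spread was tested by an exact permutation test over libraries. No Vec pair was a duplicate, as the smallest chi-square per gene over 10 pairs was 29.3.

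The 5 livers, the gene lists and the questions were chosen with earlier results of these data known, so no list's count is independent support. Named genes were the 25 of highest mean FPKM, the 30 of highest and the 10 of lowest SD, Lepr and Pparg, for each list described the 3 members of highest FPKM and of highest SD, and marker genes at 0. Srebf1, Mlxipl, Srebf2, Fabp1, Hmgcs1, Clec4f, G6pc, Acadm, Glul, Mug1 and Gm38394 were named after their values were seen. Some genes that these rules select are not reported here. Alternatives were library size or DESeq2 1.42.0 size factors as the scale, a prior count of 0.25, other count minimums, the counting variance subtracted, FPKM rescaled or without mitochondrial genes, each library left out, and, added after seeing the data, the replicate number as a block.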

Additional observations from a re-analysis of the deposited data

Results flagged for a closer look

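Among the named genes measured in the Vec livers and the list medians, some had a single mouse far from the other 4 by Dixon's ratio (critical value 0.71 for 5 samples). Chance alone gives about 1 in 20 such results, and over all 9563 genes the share was 4.25%.

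Mouse 4 was low in Mup2 (0.456 CPM against 4.95 to 11.3), Mup15 (1.47 CPM against 36.3 to 67.8), Mup17 (1.42 CPM against 70.7 to 126) and Mup20 (249.6 CPM against 803 to 1257). It was also low in Tfrc, the transferrin receptor (6.49 CPM against 12.2 to 15.7), and in Manf, a secreted stress protein (15.5 CPM against 27.2 to 32.2).

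Mouse 2 had a Kupffer cell and macrophage list median of -0.84 (others -0.02 to 0.29) and an interferon response list median of -0.86 (others 0.01 to 0.33). It had no count for H2-Ea (0 CPM against 19.7 to 52.4) or Rps18-ps5 (0 CPM against 5.37 to 23.5), 1.22 CPM for Rps18-ps6 (68.2 to 191.5 in the others) and 297 CPM for Mug2 (5.46 to 7.86 in the others).

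Mouse 1 was low in Gm45140 (0 CPM against 2.23 to 8.48) and in Dap (224 CPM against 230.4 to 233), where the whole range is small. Mouse 3 was high in Ldha (1165 CPM against 967 to 1007) and mt-Nd1 (9456 CPM against 7099 to 7576). Mouse 5 was high in Hspa1b (30.3 CPM against 3.76 to 5.78).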

How the results depend on the processing

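The number of genes with an SD of 1 or more, 120, became 281 with a mean count of 10 or more, 46 with 500 or more and 561 with no minimum, since these settings change which genes enter. It lay between 91 and 157 when a Vec mouse was left out. The median SD, 0.216, lay between 0.189 and 0.223 in those runs and between 0.190 and 0.297 in the other settings. The share of the 25 most abundant genes, 37.8%, was 33.0% without mitochondrially encoded genes and 33.5% from counts, and between 37.6% and 38.4% with a mouse left out. The wider deviation of Vec livers, 0.0365 with p = 0.0179 by exact permutation, was 0.0325 with library size as the scale (exact permutation p = 0.0666). It lay between 0.0162 and 0.0421 with a Vec mouse left out and between 0.0343 and 0.0411 with a library of another group left out. The cause was not tested. Of 234 named genes, 119 had an SD that moved by over 1.5 times in at least 1 setting. Scaling FPKM to a sum of 1000000 raises every FPKM value by 1.60 to 1.72 times, depending on the mouse, and moved the mean of 170 named genes by more than its SD. Lists rest on single mice in part. Without mouse 3 the median SD of lipogenesis was 0.587 in place of 0.878 and that of cholesterol synthesis 0.312 in place of 0.502. Without mouse 2 it was 0.349 in place of 0.564 for Kupffer cell markers and 0.382 in place of 0.528 for the interferon response. With the replicate number as a block, a fit added after seeing the data, the wider deviation was 0.0127 (exact permutation p = 0.224). The mice share only a number: deviations of 30 same-numbered pairs of libraries had a median correlation over genes of -0.02 (-0.39 to 0.44), and 2 of 20 libraries correlated best with their own number.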
